A study of Mus musculus with 12 samples.

Results

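Ribosome biogenesis genes encode the nucleolar proteins that transcribe ribosomal RNA (rRNA), process and modify it, and assemble it with ribosomal proteins. 36 such genes were described here in mouse embryonic stem (ES) cells, chosen by symbol as nucleolar and rRNA processing factors, out of 18193 genes named on the array. They were read by 75 of the array's 45101 probe sets, the groups of short probes that each report 1 transcript. The cells had 4 genotypes with 3 arrays each, 12 arrays in all. Wild type cells were the reference. Ring1B deficient cells lack by gene targeting a ubiquitin ligase of the Polycomb complex PRC1. Eed deficient cells lack by gene targeting a core subunit of the Polycomb complex PRC2. The Ring1B/Eed double deficient line was obtained by targeting Ring1B in Eed deficient cells, so it shares the Eed mutation with the Eed deficient line. The labels describe 1 line per genotype, so a difference between genotypes also holds any difference between lines. They call the arrays biological replicates and number them 1 to 3 within each genotype, without saying what separates them or what a number shared between genotypes stands for. All p-values therefore measure the spread between these arrays.

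RNA polymerase I transcribes the rRNA precursor in the nucleolus. Box C/D and box H/ACA small nucleolar ribonucleoproteins (snoRNPs) methylate and pseudouridylate it, the small subunit processome and large subunit assembly factors cut and fold it, and the resulting subunits are exported to the cytoplasm. In growing cells these genes are known targets of Myc, a transcription factor that binds E-box sequences together with Max, and ES cells, which divide fast, are known for prominent nucleoli and high rRNA output.

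Values are MAS5 signals, which are linear intensities, and their trimmed means were equal on all arrays. The targeted genes were read first, in the order of replicate numbers 1, 2 and 3, which is kept for all values below. The brighter Eed probe set gave signals of 1547, 1248 and 1489 in wild type and 1463, 1496 and 1969 in Ring1B deficient cells, against 37.3, 25.0 and 51.1 in Eed deficient and 87.1, 47.5 and 79.1 in double deficient cells. The brightest probe set of Rnf2, the gene of Ring1B, gave 777, 994 and 781 in wild type and 679, 973 and 685 in Eed deficient cells, against 398, 529 and 476 in Ring1B deficient and 362, 399 and 387 in double deficient cells. These 2 probe sets thus had their lower signals in the lines labelled deficient, with no overlap. A dim probe set of Rnf2 went the other way, with signals of 25.6 to 38.0 in wild type and 55.3 to 69.7 in Ring1B deficient cells. Which part of either gene was deleted is not given in the sources used here. Array medians ran from 19.1 to 28.0 signal units, a ratio of 1.47, and arrays of 1 genotype correlated at 0.963 to 0.984 over the tested genes, which do not count as replicates. The 12 ES cell markers checked (among them Pou5f1, Nanog and Sox2) were above the arrays' 40th percentile on at least 1 array of every genotype, with summed signals of 22918 to 24203 in wild type cells, 21453 to 23760.2 in the Ring1B line, 18806 to 22484 in the Eed line and 16262 to 18559 in the double deficient line.

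All 36 genes passed the filter on low signals and were tested, each by its brightest probe set, on the log2(signal + 5) scale with limma. Genes count as called below where the adjusted p was under 0.05, with Benjamini-Hochberg adjustment over all 13984 genes tested. The array with the highest levels was wild type replicate 1. Its median deviation over the 36 genes, from each gene's mean over the 12 arrays, was 0.53 on the log2 scale, against -0.02 and 0.12 for wild type replicates 2 and 3. The medians were 0.16, -0.16 and 0.15 for the Ring1B deficient arrays, 0.16, -0.22 and -0.08 for the Eed deficient arrays, and -0.07, -0.41 and -0.10 for the double deficient arrays. Within every genotype the array numbered 2 had the lowest median. Both patterns bear on what follows, so values without wild type replicate 1 are given beside the comparisons with wild type. Values with the arrays numbered 1 and 3 alone are given for the comparisons of double deficient cells.

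**Figure D1:**
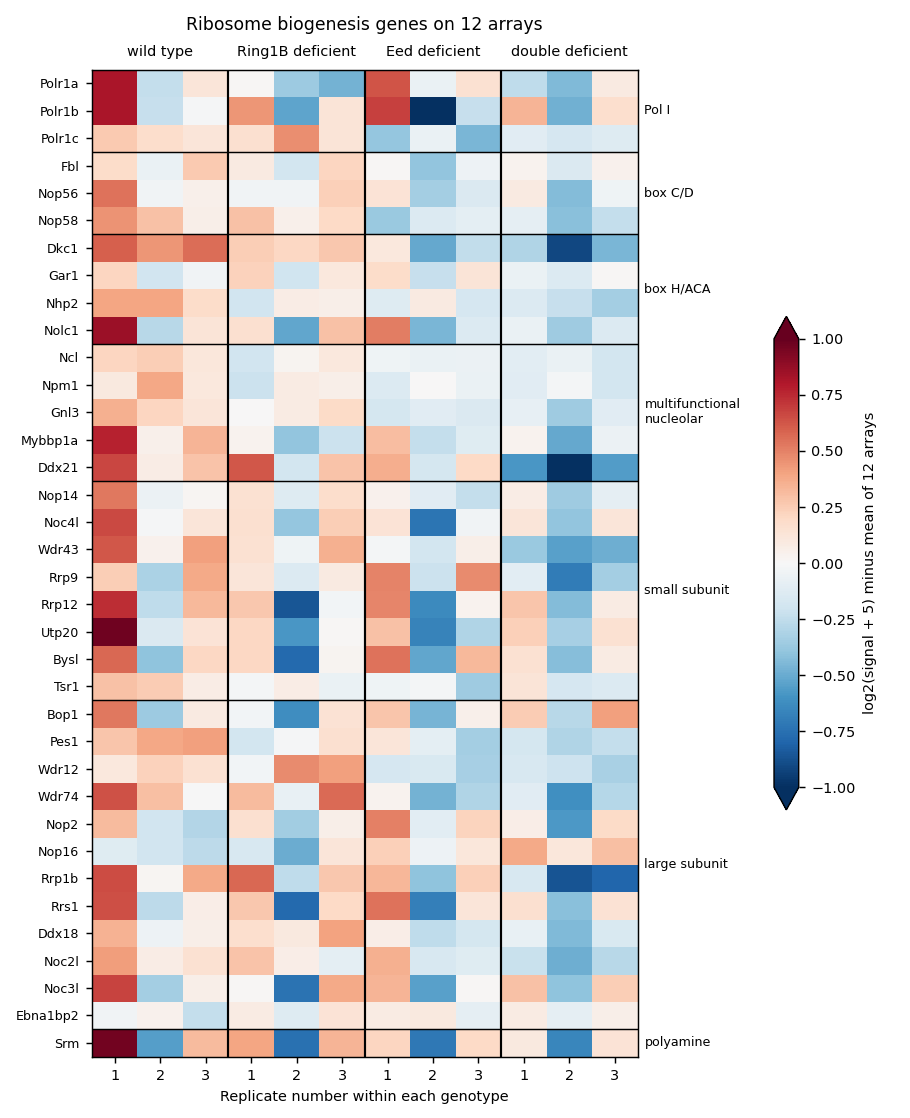
Log2(signal + 5) of each of the 36 genes (vertical axis, grouped by role) on each of the 12 arrays (horizontal axis, by genotype and replicate number), as the difference from the gene's mean over the arrays, with differences beyond 1 drawn in the end colours. Wild type replicate 1 was the highest array (median 0.53), double deficient replicate 2 the lowest (median -0.41), and the columns numbered 2 are bluer than their neighbours in each genotype.

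The first question was whether the genes differ between wild type cells and cells lacking both Polycomb subunits. In double deficient cells 13 of the 36 genes fell and 1 rose, with 11.4% of all tested genes called lower and 19.5% called higher. The median log2 change was -0.32 over the 36 genes and 0.10 over all tested genes. Falls were found among snoRNP proteins, multifunctional nucleolar proteins, small subunit factors (Wdr43 alone) and large subunit factors, and no gene of RNA polymerase I passed the test. In RNA from a whole culture, a lower level in every cell and a smaller share of cells with the gene cannot be told apart.

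Among the box H/ACA proteins, which guide pseudouridylation, 2 of 4 fell. Dkc1, the pseudouridine synthase itself and also a part of telomerase, had signals of 1768, 1589 and 1719.6 in wild type and 945, 620.4 and 851 in double deficient cells. The groups did not overlap, and the array numbered 2 was the lowest of each. The log2 change was -1.09, SE 0.17, adjusted p = 0.000303. Nhp2, which binds the guide RNA, gave 3153, 3155 and 2727 in wild type and 2183, 2045 and 1888 in double deficient cells. Again every double deficient array lay below every wild type array, with a log2 change of -0.56, SE 0.11, adjusted p = 0.0019. The H/ACA protein Gar1 and the snoRNP chaperone Nolc1 were not called (log2 changes of -0.06 and -0.42).

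Of the box C/D core, which carries out 2'-O-methylation, 1 of 3 proteins fell. Nop58 gave 1389, 1248 and 1058 in wild type and 955, 760.4 and 858 in double deficient cells, without overlap (-0.52, SE 0.13, adjusted p = 0.0104). Its partner Nop56 and the methyltransferase Fbl were not called, at -0.32 and -0.15. The RNA polymerase I subunits Polr1a, Polr1b and Polr1c, the last of which also belongs to RNA polymerase III, had log2 changes of -0.43, -0.18 and -0.32, none of them called (adjusted p = 0.227, 0.765 and 0.0779 in limma).

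Of the 5 multifunctional nucleolar proteins, 4 fell. Ddx21, an RNA helicase that couples rRNA transcription to processing, gave 823, 543 and 628 in wild type and 343, 254 and 349 in double deficient cells. The highest double deficient array thus lay well below the lowest wild type array, and the log2 change was -1.06, SE 0.22, adjusted p = 0.00277. The GTP-binding protein Gnl3 (nucleostemin) had a log2 change of -0.42, SE 0.11, adjusted p = 0.01. The chaperones Ncl and Npm1, which have the brightest probe sets of their role, moved by -0.31, SE 0.09, adjusted p = 0.016 and -0.30, SE 0.10, adjusted p = 0.0416. Npm1 gave 4887, 5973 and 4938 in wild type and 4222, 4528 and 4029 in double deficient cells, a small difference in which the groups still did not overlap. The remaining protein of this role, Mybbp1a, had a larger change of -0.57 but was not called (adjusted p = 0.0521).

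Of the 8 small subunit factors, 1 fell. It was Wdr43, part of the complex that links the processome to rRNA transcription, with 1039, 693 and 897 in wild type and 519, 459 and 477 in double deficient cells. The wild type arrays spread widely, yet the lowest of them lay above all double deficient arrays (-0.83, SE 0.15, adjusted p = 0.00126). The other 7 (Nop14, Noc4l, Rrp9, Rrp12, Utp20, Bysl and Tsr1) had log2 changes from -0.48 for Rrp9, a protein of the U3 snoRNP, to -0.19 for Bysl, and none was called. Tsr1, a late maturation factor with the brightest probe set of this role, gave 1154, 1124 and 993 in wild type and 1031, 836 and 857 in double deficient cells, which overlapped.

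Of the 12 large subunit factors, 5 fell and 1 rose. Rrp1b, a nucleolar protein bound to pre-60S particles, gave 491, 315 and 405 in wild type and 276, 168 and 177 in double deficient cells, with no overlap (-0.96, SE 0.26, adjusted p = 0.0136). Wdr74 gave 625, 495 and 400.4 against 370.2, 260.0 and 328. Its wild type arrays were far apart, and the lowest of them lay not far above double deficient replicate 1 (-0.65, SE 0.21, adjusted p = 0.0311). Pes1 and Wdr12, which form the PeBoW complex with Bop1, fell by 0.60 and 0.39 on the log2 scale (adjusted p = 0.00408 and 0.042), while Bop1 was at 0.05 and was not called. Noc2l changed by -0.55 (adjusted p = 0.0276).

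The gene that rose was Nop16, another large subunit factor, with 518, 492 and 469.6 in wild type and 734, 609.6 and 694 in double deficient cells. All double deficient arrays were higher than all wild type arrays (0.45, SE 0.15, adjusted p = 0.0372). Nop2, Rrs1, Ddx18, Noc3l and Ebna1bp2 were not called, with log2 changes from -0.34 for the helicase Ddx18 to 0.09 for Ebna1bp2. Ebna1bp2, with the brightest probe set of the role, gave 1006, 1063 and 874 against 1087, 967 and 1073, overlapping. Srm, the spermidine synthase of polyamine synthesis, was not called either (-0.38, SE 0.39, adjusted p = 0.485). Its wild type arrays ran from 554 to 1594.

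Of the 14 calls, 4 held in all of the 22 alternatives tried (those of Dkc1, Nhp2, Ddx21 and Wdr43). The call of Wdr12 was lost in 10 alternatives (adjusted p up to 0.191), that of Npm1 in 9, that of Nop16 in 7, and those of Wdr74 and Noc2l in 6 each. Nop16 and Wdr12 both lost theirs without wild type replicate 1, 2 or 3 and without double deficient replicate 1 or 3, and Wdr12 also without double deficient replicate 2. For Npm1 the call was lost when replicate 2 or 3 of wild type, replicate 1 or 3 of the double deficient line or replicate 3 of the Eed line was left out. With the replicate number in the model, which takes out what arrays of 1 number share, 21 genes fell and 1 rose, with 17.2% of all tested genes called lower and 25% higher. Leaving out wild type replicate 1 left 9 falls and a median log2 change of -0.18 over the 36 genes. Leaving out double deficient replicate 3 left 7 falls, and the arrays numbered 1 and 3 alone gave 9 falls and a median of -0.33. Over all genes, lower calls were 1371, 1013 and 1434 in these settings in the same order, against 1589 with all arrays. Centring each array on its median turned the counts over all genes from 2723 higher and 1589 lower to 1691 higher and 3141 lower, shifted the median of all genes from 0.10 to -0.15, and gave 20 falls and 0 rises among the 36. The difference between the median of the 36 genes and that of all genes was about the same on both scales, with -0.57 against -0.15 after centring.

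**Figure D2:**
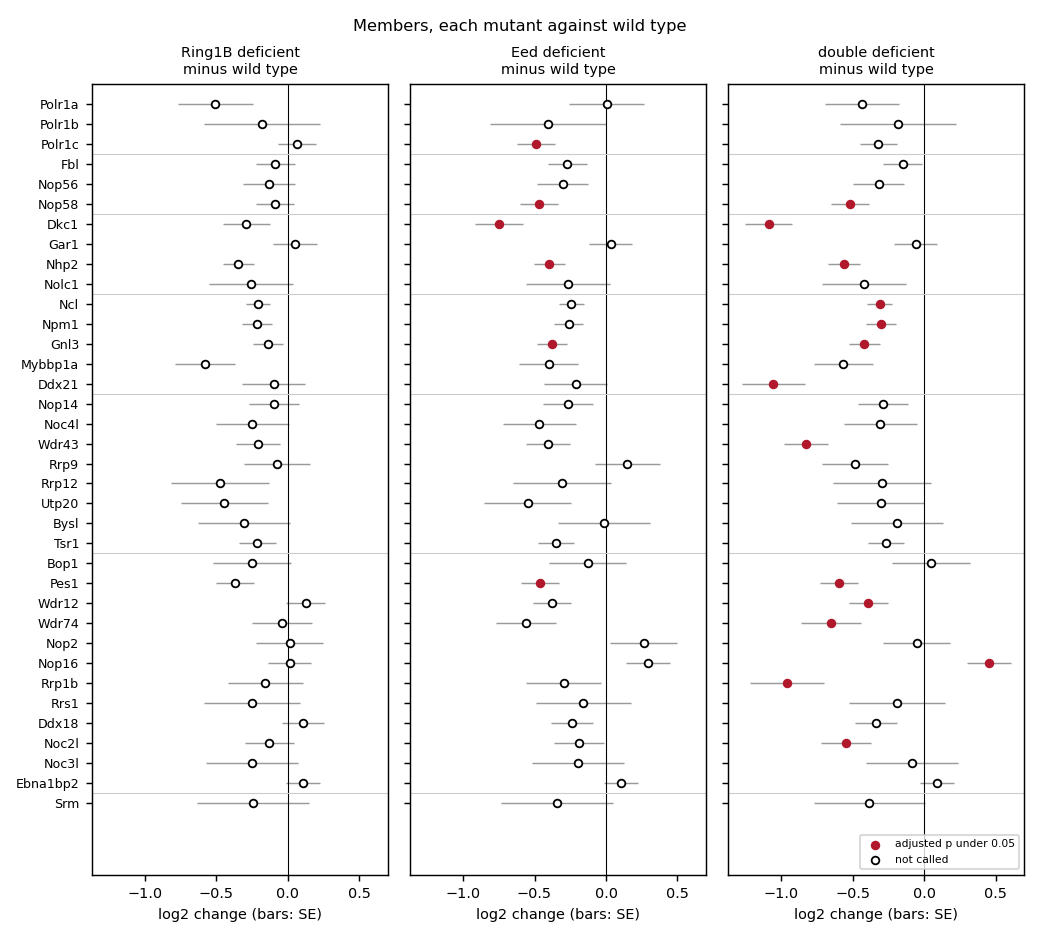
Log2 change of each of the 36 genes (points, with bars for 1 standard error) in Ring1B deficient, Eed deficient and double deficient cells minus wild type, with filled points for an adjusted p under 0.05 in limma. No gene was called in Ring1B deficient cells, 6 were lower in Eed deficient cells, and 13 were lower and 1 higher in double deficient cells.

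In Eed deficient cells, which lack a PRC2 core subunit, 6 of the 36 genes fell and 0 rose against wild type, with 4.56% of all tested genes called lower and 10.8% higher. The count at an unadjusted p under 0.05 was 12 in limma, where 29.4% of all tested genes had such a p. The median log2 change was -0.28, against 0.03 over all tested genes. Dkc1 gave 1259.5, 816 and 984 in Eed deficient cells, all below the wild type arrays given above (-0.75, SE 0.17, adjusted p = 0.00799). Polr1c, the RNA polymerase I and III subunit, gave 588, 736 and 560.2 against 925, 872 and 838 in wild type. Every Eed deficient array was lower than every wild type array (-0.49, SE 0.13, adjusted p = 0.0218). Nop58, Pes1, Nhp2 and Gnl3 changed by -0.47, -0.46, -0.40 and -0.38 (adjusted p from 0.0275 to 0.0313). Pes1 gave 829, 714 and 603 against 925, 999.7 and 1015, without overlap.

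The Eed count was smaller with some single arrays left out, as was the count over all tested genes. Among the 36 it was 2 without replicate 1 of wild type or of Eed deficient cells, 3 without replicate 2 of wild type or of Eed deficient cells, and 1 without Eed deficient replicate 3. Over all genes, lower calls were 427, 586, 547, 398 and 334 in the same order, against 637 with all arrays. The median over the 36 genes was -0.12 without wild type replicate 1. Dkc1 was called in each of the 22 alternatives tried, with a largest adjusted p of 0.0344, whereas Polr1c lost its call in 4, Nhp2 in 6, Pes1 in 8, Gnl3 in 9 and Nop58 in 10. In the model with the replicate number 16 genes fell, and 10.7% of all tested genes were called lower.

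In Ring1B deficient cells 0 of the 36 genes rose and 0 fell against wild type in limma, where 4.68% of all tested genes were called higher and 2.5% lower. 4 of the 36 had an unadjusted p under 0.05, as had 20.5% of all tested genes. With the replicate number in the model 4 genes were called lower (Mybbp1a, Nhp2, Rrp12 and Utp20, adjusted p from 0.000895 to 0.0393), with 6.78% of all tested genes called lower. The median log2 change of the 36 was -0.19, against -0.01 over all genes, and without wild type replicate 1 it was -0.01. The largest changes were those of Mybbp1a (-0.58, SE 0.21, adjusted p = 0.12), Polr1a (-0.51, SE 0.26, adjusted p = 0.299) and Rrp12 (-0.48, SE 0.34, adjusted p = 0.483). Mybbp1a gave 845, 626 and 711 in Ring1B deficient cells and 1415, 854 and 1045 in wild type cells, where the lowest wild type array was close to the highest Ring1B deficient one.

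The mutants were then compared with each other, and these contrasts do not use the wild type means. Against Ring1B deficient cells, 7 of the 36 genes fell in double deficient cells and 0 rose, with 5.98% of all tested genes called lower and 12.7% higher. The median log2 change was -0.12, against 0.11 over all genes. Ddx21 gave 795, 454 and 630.3 in Ring1B deficient cells, all above the double deficient arrays (-0.96, SE 0.22, adjusted p = 0.0096). Dkc1 was more even, with 1385, 1351 and 1408 in Ring1B deficient cells (-0.80, SE 0.17, adjusted p = 0.00558). Rrp1b gave 463, 259 and 374 (-0.80, SE 0.26, adjusted p = 0.0472), and its lowest Ring1B deficient array lay below the highest double deficient one.

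Wdr43, Wdr12, Ddx18 and Nop58 completed the 7, with log2 changes of -0.62, -0.51, -0.44 and -0.43. Wdr12, the PeBoW protein named above, gave 719, 1016 and 973 in Ring1B deficient and 655, 634 and 583 in double deficient cells, without overlap. Wdr43 gave 747, 653 and 860.0 in Ring1B deficient cells, also above all double deficient arrays. Ddx18 gave 975, 928 and 1143 against 824, 636 and 779.6, also without overlap, but its call was lost in 13 of 22 alternatives (adjusted p up to 0.365), among them those without any 1 array of either group. Rrp1b lost its call in 10 and Nop58 in 7. In the model with the replicate number 12 genes fell and 1 rose, with 11.8% of all tested genes called lower and 19.5% higher. The count was 4 without Ring1B deficient replicate 1 or double deficient replicate 2, 2 without Ring1B deficient replicate 3 or double deficient replicate 3, and 4 with the arrays numbered 1 and 3 alone. After centring each array on its median it was 13, while the counts over all genes went from 1781 higher and 836 lower to 963 and 2226.

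Between double deficient and Eed deficient cells, which share the Eed mutation, 0 of the 36 genes rose and 0 fell in limma. Of all tested genes 1.07% were called higher and 0.822% lower, and 4 of the 36 had an unadjusted p under 0.05, against 17.3% of all tested genes. The median log2 change was -0.04, against 0.06 over all genes. Ddx21 had the largest change (-0.85, SE 0.22, adjusted p = 0.0659), with 666, 457 and 592 in Eed deficient cells, all above the double deficient arrays. Rrp1b and Rrp9 followed (-0.66, SE 0.26, adjusted p = 0.205, and -0.63, SE 0.23, adjusted p = 0.173). The call for 1 gene appeared without Ring1B deficient replicate 2, which enters this contrast only through the shared estimate of spread, and with the arrays numbered 1 and 3 alone. With the replicate number in the model 4 genes fell (Ddx21, Rrp1b, Rrp9 and Wdr43, adjusted p from 0.000327 to 0.0269), with 4.63% of all tested genes called lower.

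Between Eed deficient and Ring1B deficient cells 1 of the 36 genes fell and 0 rose, with 1.11% of all tested genes called lower and 3.37% higher. The gene was Polr1c, with 859.7, 1067 and 842 in Ring1B deficient cells, all above the Eed deficient arrays (-0.55, SE 0.13, adjusted p = 0.0299). The call was lost without Ring1B deficient replicate 2 or 3, Eed deficient replicate 1 or 3 or double deficient replicate 1, and 2 genes were called without Ring1B deficient replicate 1. The model with the replicate number gave 6 falls, and 4.03% of all tested genes were called lower. Whether losing Ring1B changes a gene differently with and without Eed was tested as an interaction, the double minus Eed deficient difference less the Ring1B minus wild type difference. Limma called 0 of the 36 genes in each direction, with 0.708% of all tested genes called positive and 1.19% negative, and 1 gene at an unadjusted p under 0.05, against 16.6% of all tested genes. The 3 largest values were those of Ddx21 (-0.74, SE 0.31, adjusted p = 0.248), Utp20 (0.69, SE 0.43, adjusted p = 0.447) and Rrp9 (-0.56, SE 0.32, adjusted p = 0.407). With the replicate number in the model Ddx21 was called negative and Utp20 positive, with 5.14% and 3.87% of all tested genes called in these directions. Apart from Ddx21 in that model, the falls called in the double deficient line and not in the single mutants are not shown to differ from the sum of the single changes.

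By the order of genotype means, wild type had the highest mean log2 value in 26 of the 36 genes and double deficient cells the lowest in 21. Of all tested genes, 27.3% had their highest mean in wild type and 25.4% their lowest in double deficient cells. All 3 double deficient arrays lay below all 3 wild type arrays in 16 genes and above them in 1, as they did in 18% and 27.8% of all tested genes. 3 of these 16 genes (Polr1c, Mybbp1a and Ddx18) did not pass the test.

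The second comparison set the arrays against each other by replicate number, with genotype in the model, so that each number is represented once in every genotype. In arrays numbered 2 against arrays numbered 1, 25 of the 36 genes were lower and 1 was higher, with 11.7% of all tested genes called lower and 12.3% higher. The median log2 difference was -0.38, against 0.01 over all genes. The lower genes came from every role, with 2 of 3 RNA polymerase I subunits, 2 of 3 box C/D proteins, 3 of 4 box H/ACA proteins, 2 of 5 multifunctional proteins, 7 of 8 small subunit factors, 8 of 12 large subunit factors, and Srm.

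The largest difference was that of Polr1b, the second largest subunit of RNA polymerase I. Its signals were 265, 126 and 147 on the wild type arrays, 203, 101 and 163 on the Ring1B deficient arrays, 241, 66.6 and 126 on the Eed deficient arrays and 189, 105 and 167 on the double deficient arrays. The array numbered 2 was the lowest and the array numbered 1 the highest in each genotype, and the log2 difference was -1.16, SE 0.15, adjusted p = 0.000188. Srm gave 1594, 554 and 1013, 1069.8, 485 and 1033, 948, 493 and 937 and 869, 516 and 896 in the same order of genotypes. Its highest array numbered 2 was that of wild type at 554, and its lowest other array was double deficient replicate 1 at 869 (-1.08, SE 0.11, adjusted p = 3.98e-05).

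Rrp12, which takes part in the maturation and export of subunits, gave 217, 106 and 162 on the wild type arrays, 155, 68.5 and 125 on the Ring1B deficient arrays, 181, 80.5 and 132 on the Eed deficient arrays and 156, 93.5 and 136 on the double deficient arrays. Number 2 was again the lowest in each genotype (-0.99, SE 0.11, adjusted p = 6.93e-05). Rrs1, needed for assembly of the 5S ribonucleoprotein into the large subunit, gave 1077, 574 and 719, 831, 400.0 and 791, 1004, 426 and 747 and 769, 512 and 761. These arrays show the same order (-0.94, SE 0.11, adjusted p = 0.000117). Bysl, a small subunit maturation factor, gave 347, 174 and 267, 267, 133 and 235, 338, 159 and 290.4 and 257, 171 and 245, with number 2 lowest in each genotype (-0.90, SE 0.11, adjusted p = 9.69e-05). Utp20, a large scaffold protein of the processome, gave 573, 261 and 319, 334, 192 and 292, 356, 180.4 and 233 and 342, 228 and 322, again lowest in number 2 (-0.86, SE 0.12, adjusted p = 0.000254).

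The other 19 lower genes fell into a stronger and a weaker range. Noc3l, Nolc1, Rrp1b, Bop1, Noc4l, Ddx21, Polr1a, Nop2, Mybbp1a and Rrp9 lay between -0.84 and -0.53. Wdr74, Nop56, Nop14, Dkc1, Noc2l, Gar1, Ddx18, Fbl and Wdr43 had smaller differences, from -0.43 to -0.28. Fbl, the box C/D protein with the brightest probe set, gave 2144, 1799 and 2265, 2011, 1659 and 2184, 1901, 1437 and 1818 and 1929.8, 1704 and 1944, a small difference with number 2 the lowest in every genotype (-0.28, SE 0.07, adjusted p = 0.00749).

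Npm1 was the gene higher in arrays numbered 2 (0.21, SE 0.06, adjusted p = 0.0247). Its signals were 4887, 5973 and 4938 on the wild type arrays, 3938, 4859 and 4779 on the Ring1B deficient arrays, 4161, 4596 and 4373 on the Eed deficient arrays and 4222, 4528 and 4029 on the double deficient arrays, with number 2 the highest in each. This call was lost after quantile normalization, where the log2 difference was -0.06, after median centring, and without replicate 1 or 2 of wild type, Ring1B deficient or Eed deficient cells. Of the 26 calls, 15 held in all of the 20 alternatives tried. Those of Wdr43, Ddx18, Npm1, Noc2l, Nop14 and Wdr74 were lost in over 5, Wdr43 leading with 12 (adjusted p up to 0.271). The remaining 10 genes (Polr1c, Nop58, Nhp2, Ncl, Gnl3, Tsr1, Pes1, Wdr12, Nop16 and Ebna1bp2) were not called, with log2 differences from -0.24 for Nop16 to 0.15 for Wdr12.

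In arrays numbered 3 against arrays numbered 2, 13 of the 36 genes were higher and 0 lower, with 4.39% of all tested genes called higher and 4.96% lower. The median was 0.24, against 0.01 over all genes, and 23 genes had an unadjusted p under 0.05 in limma, as had 25.6% of all tested genes. The 13 genes were Srm (0.91), Bysl (0.69), Noc3l (0.68), Rrs1 (0.67), Rrp12 (0.65), Bop1 (0.61), Polr1b (0.60), Noc4l (0.50), Rrp9 (0.49), Utp20 (0.43), Rrp1b (0.40), Ddx21 (0.37) and Fbl (0.31), with adjusted p from 0.000455 to 0.0344. This contrast shares the arrays numbered 2 with the one before, so its genes are not a separate line of evidence. The count was 7 without Ring1B deficient replicate 2 or Eed deficient replicate 3, 8 without Ring1B deficient replicate 3 and 6 without Eed deficient replicate 2. Over all genes, higher calls were 192 to 310 in these settings, against 614 with all arrays.

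Between arrays numbered 3 and 1, limma called 0 of the 36 genes in either direction, as it did for all tested genes (0% higher and 0% lower). 10 of the 36 had an unadjusted p under 0.05, as had 11.6% of all tested genes, and the median difference was -0.16, or -0.05 without the wild type arrays. The largest differences were those of Polr1b (-0.56, SE 0.15, adjusted p = 0.25), Utp20 (-0.43, SE 0.12, adjusted p = 0.251) and Rrp12 (-0.34, SE 0.11, adjusted p = 0.316). The lower levels in arrays numbered 2 against number 1 did not rest on wild type. Without the 3 wild type arrays 19 genes were called lower with a median of -0.38, and without wild type replicate 1 there were 18 with a median of -0.36. Over all genes, lower calls were 1165 and 1067 in these settings, against 1634 with all arrays.

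**Figure D3:**
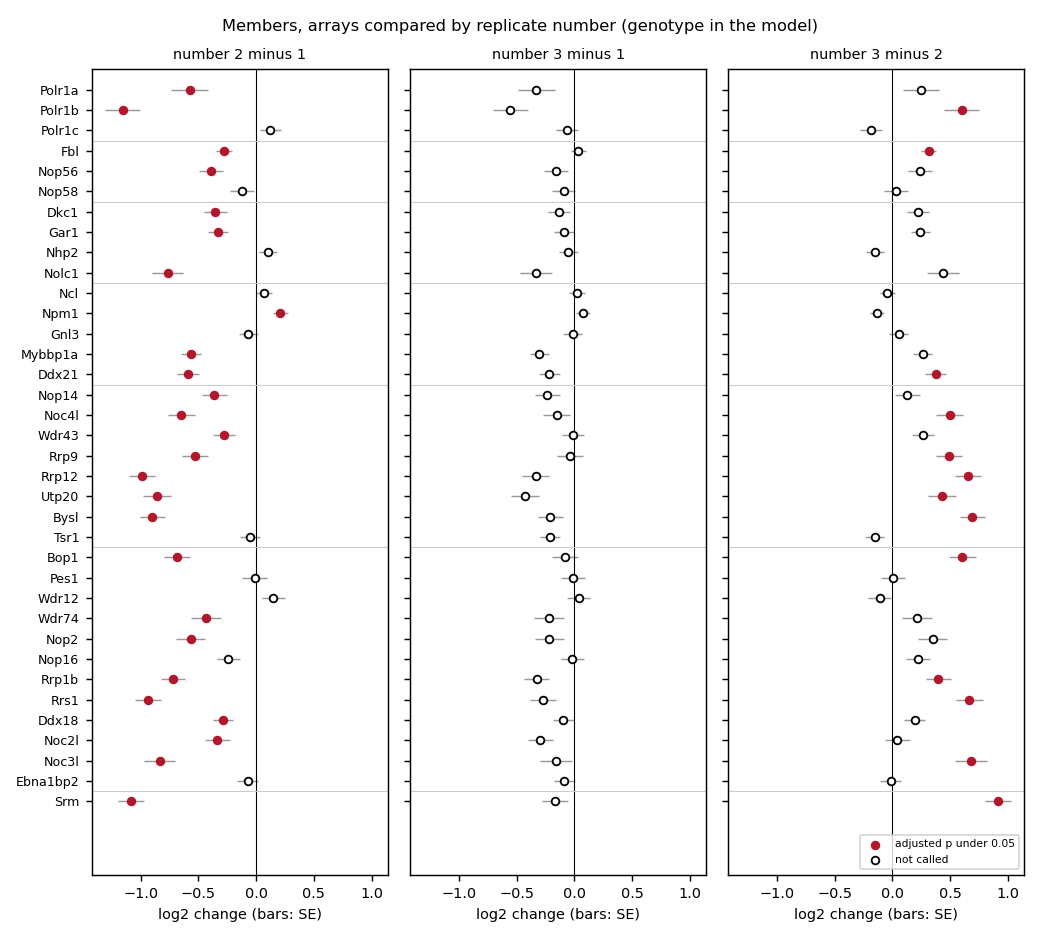
Log2 difference of each of the 36 genes between arrays of different replicate numbers (points, with bars for 1 standard error), with genotype in the model and filled points for an adjusted p under 0.05 in limma. For number 2 minus 1, 25 genes were lower and 1 higher, for number 3 minus 1 none was called, and for number 3 minus 2, 13 were higher.

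Taken array by array, the array numbered 2 was the lowest of its genotype in 107 of 144 gene and genotype pairs. These were 23 of the 36 genes on the wild type arrays, 26 on the Ring1B deficient arrays, 26 on the Eed deficient arrays and 32 on the double deficient arrays, while between 30.8% and 40.3% of all tested genes had their lowest value there. It was the lowest in all 4 genotypes for 20 genes, and in none for Nhp2, Npm1 and Wdr12. The median log2 difference between numbers 2 and 1 was -0.53 in wild type cells, -0.31 in the Ring1B line, -0.51 in the Eed line and -0.40 in the double deficient line.

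Genotype and replicate number weighed differently on different genes. The share of a gene's variance over the 12 arrays that went with genotype had a median of 46.7% over the 36 genes and 50.5% over all tested genes. The share that went with replicate number had a median of 37.8% over the 36 and 16.8% over all. Replicate number held the larger share in 16 of the 36 genes (44.4%) and in 25.6% of all tested genes. In Bysl it held 86.1% against 9.58% for genotype, in Rrs1 84.9% against 4.67%, and in Srm 84.6% against 8.29%. In Dkc1 genotype held 83.7% and replicate number 10.3%, and in Gnl3 79.6% and 2.33%. Pes1 had 76.6% and 0.0519%. Ddx21 was intermediate, with 72.8% for genotype and 24.7% for replicate number, and 2.53% left over. Ebna1bp2 followed neither, with 72.8% left over. Of the 36 genes, 20 were called in no pair of genotypes, and Ebna1bp2 and Tsr1 were called in no contrast at all.

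**Figure D4:**
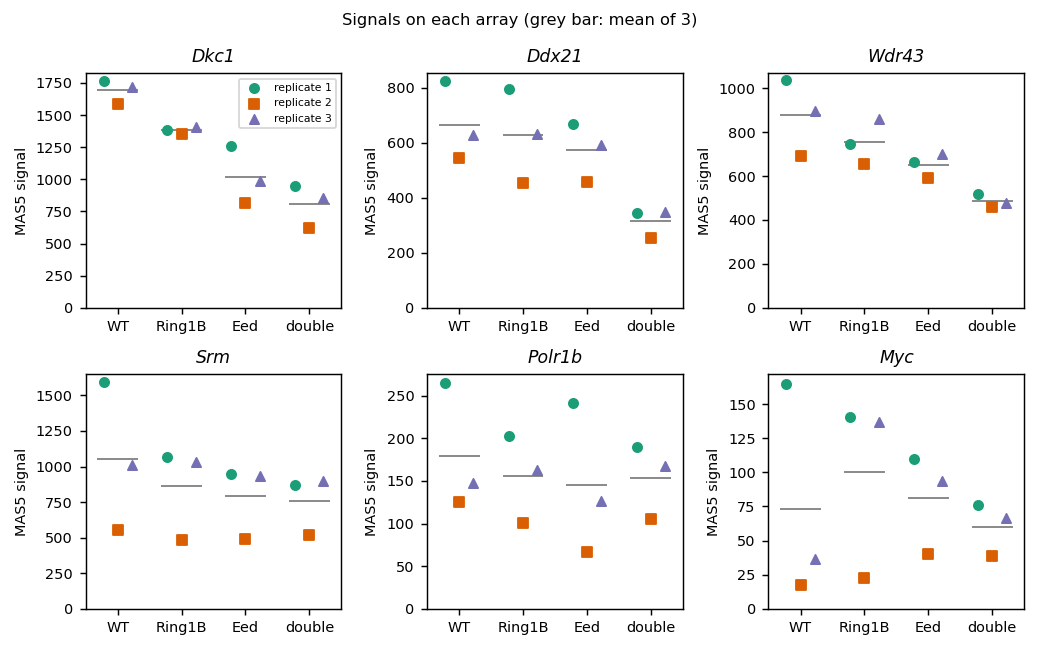
MAS5 signal of 5 of the genes and of Myc (vertical axis, linear, from 0) on each array by genotype, with a marker for each replicate number and a grey bar for the mean of 3 arrays. Dkc1, Ddx21 and Wdr43 have their lowest mean in double deficient cells (log2 changes of -1.09, -1.06 and -0.83). Srm, Polr1b and Myc are lowest in the array numbered 2 of every genotype (log2 differences of -1.08, -1.16 and -1.90 from number 1). Dkc1, Ddx21 and Wdr43 are also lowest in the array numbered 2 of every genotype.

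Further genes of the pathway were read from a list of other ribosome biogenesis factors, of which 109 were tested. In double deficient cells 24 of them fell and 2 rose against wild type, with a median log2 change of -0.26. The largest falls were those of Nob1, the nuclease that makes the mature end of 18S rRNA (-1.01, SE 0.13, adjusted p = 0.000109), Nufip1, a snoRNP assembly factor (-0.90, adjusted p = 0.00115), and the AAA+ helicase Ruvbl2 (-0.85, adjusted p = 0.00102). The rises were those of Nol6 (0.63, adjusted p = 0.0369) and Rrp8 (0.60, adjusted p = 0.0241). In Eed deficient cells 9 fell and 0 rose, led by Ngdn (-0.69), Nufip1 (-0.60) and Utp14a (-0.59), and in Ring1B deficient cells 1 fell, Utp18 (-0.43, adjusted p = 0.0306). Against Ring1B deficient cells, 17 fell in double deficient and 6 in Eed deficient cells. In arrays numbered 2 against 1, 37 of the 109 were lower and 4 higher (median -0.23), with the largest falls in Wdr46 (-1.69), Urb1 (-0.94) and Dhx37 (-0.93), and the largest rise in Nsa2 (0.63).

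Genes of the cytosolic ribosomal proteins, the proteins that the factors above assemble, went another way by replicate number. Of 43 tested, 39 were higher and 0 lower in arrays numbered 2 against 1, with a median of 0.29, led by Rps27 (0.69, SE 0.21, adjusted p = 0.0287). Their call depended on scaling, with 4 higher after quantile normalization, 22 after median centring and 14 without the intensity trend. In number 3 against 2, 23 were lower and 0 higher, and 0 and 7 were lower after these normalizations in the same order. By genotype they were mostly not called, with 1 higher (Rpl14, 0.48) and 1 lower (Rpl12, -1.30) in double deficient cells against wild type.

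**Figure D5:**
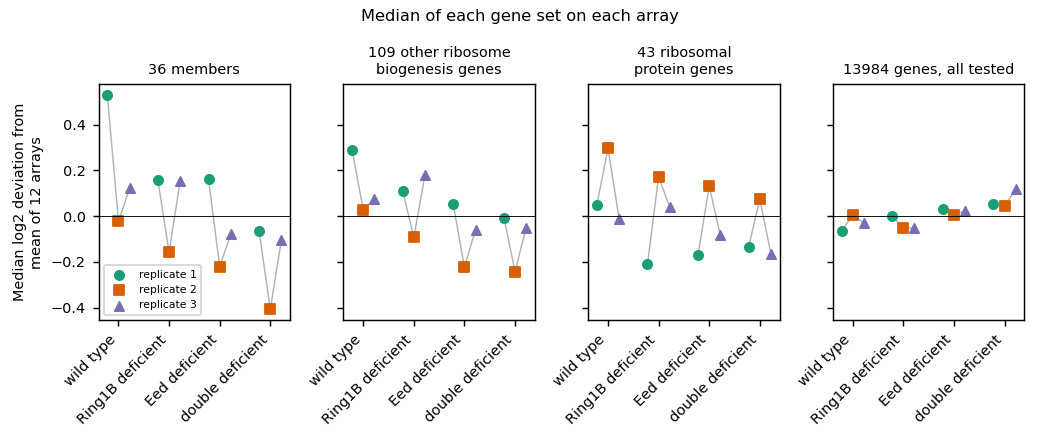
Median over the genes of a set of the log2 deviation from each gene's mean over the 12 arrays (vertical axis), for each array by genotype, with a marker for each replicate number. The 36 genes and the 109 other ribosome biogenesis genes are lowest in the array numbered 2 of each genotype, the 43 ribosomal protein genes are highest there, and all 13984 tested genes stay between -0.06 and 0.12.

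The transcription factors of the Myc network were read beside them, with 12 genes tested. In arrays numbered 2 against 1, 4 were lower and 0 higher. Myc itself gave 165, 17.2 and 36.7 on the wild type arrays, 140.4, 22.7 and 137 on the Ring1B deficient arrays, 110.1, 39.9 and 93.5 on the Eed deficient arrays and 75.8, 38.3 and 66.6 on the double deficient arrays. The array numbered 2 was the lowest of each genotype, and the log2 difference was -1.90, SE 0.30, adjusted p = 0.000509. Its size rests in part on low signals. Myc lay below the array median of 21.8 on wild type replicate 2, and near the median of 19.7 on Ring1B deficient replicate 2. Mycn, the paralog with the brighter probe set in these cells, gave 1623, 754 and 789.6, 581, 268 and 433, 872, 374 and 483 and 675, 605 and 673, again lowest in number 2 (-0.89, SE 0.15, adjusted p = 0.000863). Max, the shared partner of both, differed by -0.72, SE 0.14, adjusted p = 0.00204, and the repressor Mnt by -0.35. The call of Mnt was lost in 15 of 20 alternatives. By genotype the pattern was another one. Mycn and Mnt fell in Ring1B deficient cells (-1.27 and -0.81), calls lost in 13 and 5 of 22 alternatives. Mga fell in Eed deficient and double deficient cells (-0.43 and -0.48), calls lost in 12 and 3 of 22. Myc was called in no genotype contrast.

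The promoters were read because Myc and 25 of the 36 genes were called lower in arrays numbered 2 than in arrays numbered 1. RefSeq windows (assembly GRCm38.p6) from 250 bases before to 50 bases after the start were matched by symbol for 30 of the 36 genes. The Myc and Max E-box CACGTG, which reads the same on both strands, was in 6 of the 30 (20%) and in 8.09% of all 27025 promoters. The ETS motif CCGGAAG, on either strand, was in 10 of the 30 (33.3%) against 9.93%, the ZBTB33 motif TCTCGCGA in 4 (13.3%) against 1.13%, and the NRF1 motif GCGCATGC in 0 against 3.05%. A match is a description of the letters and not a binding site. The 27025 promoters outnumber the 13984 genes tested, so they include genes not tested here. Shares among the tested genes alone were not computed. The E-box genes were Nop2, Pes1, Tsr1, Wdr43, Utp20 and Mybbp1a. 4 of the windows are shown, from 100 bases before to 30 bases after the start on the plus strand, since they hold the whole E-box, which is in capitals.
Nop2: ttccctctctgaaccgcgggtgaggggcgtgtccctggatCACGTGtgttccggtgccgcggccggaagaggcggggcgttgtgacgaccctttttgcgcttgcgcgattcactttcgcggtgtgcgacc
Pes1: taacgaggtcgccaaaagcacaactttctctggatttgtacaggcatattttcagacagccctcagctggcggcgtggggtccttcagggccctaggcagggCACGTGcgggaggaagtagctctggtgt
Tsr1: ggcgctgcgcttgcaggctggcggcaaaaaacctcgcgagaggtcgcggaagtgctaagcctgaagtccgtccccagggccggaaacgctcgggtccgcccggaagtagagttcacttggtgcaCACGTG
Wdr43: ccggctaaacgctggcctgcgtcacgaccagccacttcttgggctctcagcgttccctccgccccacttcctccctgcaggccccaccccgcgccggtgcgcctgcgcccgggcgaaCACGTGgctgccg
They lie at chr6:125131783-125131912 (Nop2), chr11:3963875-3964004 (Pes1), chr11:74897980-74898109 (Tsr1) and chr17:71616115-71616244 (Wdr43). The E-box begins at position -60 in Nop2 and at positions 3, 25 and 18, counted from the start as 1, in Pes1, Tsr1 and Wdr43. The 6 E-box genes differed in the data. In arrays numbered 2 against 1, Nop2 was called lower at -0.57 and Wdr43 at -0.28, the latter a call lost in 12 of 20 alternatives, whereas Pes1 (-0.01) and Tsr1 (-0.06) were not called. Utp20 and Mybbp1a, whose windows are not shown, were also called lower, and these calls held in all 20 alternatives. Among all 36 genes, with or without an E-box, 25 were called lower. The part of Myc in the replicate number difference was not tested.

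Other measures also moved with the groups. In double deficient cells 10 of 19 proliferation genes fell (median -0.40) and 9 of 12 ES cell markers fell (median -0.63). Of 17 fibroblast and feeder markers 6 rose in the Eed deficient and 13 in the double deficient line, and their summed signal ran from 4177 to 4645 on the wild type arrays, 2706 to 3813 on the Ring1B deficient arrays, 5150 to 10578 on the Eed deficient arrays and 10614 to 11669 on the double deficient arrays. In the Eed line 1 array stood apart, with sums of 5150, 5268 and 10578 on replicates 1, 2 and 3, and without replicate 3 the markers that rose there were 2 in place of 6. Lum stayed under the arrays' 40th percentile on all wild type and all Ring1B deficient arrays. Of 14 endoderm markers 11 rose in Ring1B deficient cells, 12 in the Eed deficient line and 12 in the double deficient line, with sums of 395 to 490.2 in wild type cells, 3201 to 4367 in the Ring1B line, 3925 to 7130.3 in the Eed line and 6543 to 7269.8 in the double deficient line, and Foxa2, Sox7, Ttr and Afp under that percentile on all wild type arrays. Of 8 trophoblast markers tested 4, 7 and 7 rose in the same order, with sums of 667 to 1400.1 in wild type cells, 1464 to 3047 in the Ring1B line, 3641 to 6165 in the Eed line and 4769.9 to 7824 in the double deficient line. Of 6 macrophage markers tested 0, 1 and 3 rose, with sums of 158 to 305 on the wild type arrays, 167 to 197 on the Ring1B deficient arrays, 179 to 1158 on the Eed deficient arrays and 684 to 1046 on the double deficient arrays. Eed deficient replicate 3 again stood apart, with 1158 against 179 and 269.7 on replicates 1 and 2. Without this array 1 of the 36 genes was lower in Eed deficient cells, in place of 6. Lower calls over all tested genes then went from 637 to 334. The count among the 36 was also down to 2 or 3 without replicate 1 or 2 of wild type or of Eed deficient cells. Without Eed deficient replicate 3, endoderm markers that rose were 13 in place of 12, and trophoblast markers 5 in place of 7. The part of these cell types in the lower levels of the 36 genes was not tested.

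By replicate number, 6 of the 12 ES cell markers were lower and 1 higher in arrays numbered 2 against 1, and 4 of 8 trophoblast and 2 of 6 macrophage markers were higher. Of 19 proliferation genes 2 were lower and 2 higher (median 0.11), and of 14 endoderm markers 1 was lower and 1 higher. None of the 17 fibroblast and feeder markers was called. Of all tested genes, 11.7% were called lower and 12.3% higher in this contrast. The ratio of 3' to 5' Actb signal, a sign of RNA length, was 1.34 to 1.42 in arrays numbered 1, 1.39 to 1.66 in arrays numbered 2 and 1.27 to 1.40 in arrays numbered 3, and it was highest in number 2 in 3 of the 4 genotypes. The same ratio for Gapdh was 0.781 to 0.806, 0.755 to 0.774 and 0.716 to 0.791. The 3' control for 18S rRNA gave 144 to 185, 184 to 209.8 and 135 to 196. The part of RNA quality and of culture in the replicate number difference was not tested.

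Where a gene had further probe sets, they mostly moved the same way. Of the 75 probe sets 71 passed the filter, and 25 genes had 35 probe sets beyond the one tested. Of these, 29 had the sign of the tested probe set in double deficient cells against wild type, 32 in Eed deficient cells and 26 in Ring1B deficient cells, and 30 had it for the deviation of the arrays numbered 2. Pes1 and Ncl were exceptions. Averaging over the probe sets of a gene gave log2 changes of 0.03 for Pes1 (adjusted p = 0.91) and -0.02 for Ncl (adjusted p = 0.948) in double deficient cells, and the number of falls among the 36 was then 8.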

How the data were processed

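Total RNA from 12 samples of mouse ES cells had been hybridised to Affymetrix Mouse 430_2.0 arrays by a commercial provider, per the labels' protocols. Per the submitters' processing notes, MAS5 was the tool with which the authors made the deposited intensity values (signals). Its version is not given in the sources used here, nor are its settings, and detection calls were not used here. The deposited intensity values are linear, and their mean with 2% left off at each end was 100 on every array, so the arrays had been scaled to 1 level. No further normalization was applied. The number of arrays limits the precision.

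Of 45101 probe sets, 64 were controls, 34945 had 1 gene symbol in the platform annotation, 932 had several and 9160 were not listed. A probe set with 1 symbol was kept above its array's 40th percentile on at least 3 of 12 arrays, and the brightest kept probe set of each gene was tested. Signals were turned into log2(signal + 5), where 5 is the median, over arrays, of the 20th percentile, rounded. A fold change on this scale understates that of low genes. limma 3.58.1 in R 4.3.3 fitted 1 mean per genotype to the 12 arrays, with variances moderated by eBayes along an intensity trend. Replicate numbers were compared in a model with genotype and number. Adjusted p values are Benjamini-Hochberg values over all 13984 genes tested. The script was tested on simulated data.

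The 36 genes, the lists of other genes and the motifs were chosen with earlier results of these data known. Every one of the 36 genes is accounted for. Array values were given for up to 6 called genes of a contrast by size of change and for the gene with the brightest probe set of each role, and for the 3 largest changes where none was called, in part as the fitted value alone. Of the other lists, up to 3 called genes in each direction were named by size of change. Array values of Pes1, Wdr12, Wdr43, Ddx18, Mybbp1a and Mycn beyond this rule were chosen after their values were seen. Alternatives were quantile normalization between arrays, centring of each array on its median, a pseudocount of 1, no filter, the mean over probe sets, no trend, array weights, the arrays of the groups compared alone, the replicate number as a block, and each array left out. 2 more were chosen after seeing the data, namely the arrays numbered 1 and 3 alone and, for replicate numbers, no wild type arrays.

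Whether replicate numbers pair arrays was checked from deviations from the genotype means. Same-numbered arrays correlated at a median of 0.28 (-0.0478 to 0.614), and arrays of different numbers at -0.19 (-0.485 to 0.194). Such deviations cancel out within a genotype, so positive values for same-numbered arrays bring negative ones for different numbers. The negative values are thus not a separate line of evidence. All 12 pairs numbered 1 or 2 were over 0.1, but 1 of the 6 pairs numbered 3, and the labels do not say what a number shares. The fit without the number was therefore kept as the reported one, since pairing was taken only where every pair was over 0.1, and counts with the number in the model are given beside it. Without Eed deficient replicate 3, markers of other cell types were also read again, chosen after seeing the data.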

Additional observations from a re-analysis of the deposited data

How the results depend on the processing

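Of 426 alternative values of the counts of called genes among the 36, 356 stayed within 1.5 times the reported count. A reported count of 0 that stayed at 0 is included in the 356, and many reported counts were 0. The 356 therefore say little about the counts above 0. Of 213 medians 211 moved by less than the SD of the array medians (0.222). That SD is larger than some of the medians, such as -0.19 in Ring1B deficient against wild type cells. A median could thus come near 0 and still count here as unmoved. Of 1604 log2 changes of named genes, 1293 kept their call, 309 lost it and 2 changed sign, namely Pes1 in double deficient cells (0.033, adjusted p = 0.91) with the mean over probe sets, and Npm1 in number 2 against 1 (-0.059, adjusted p = 0.359) after quantile normalization. The cause was not tested. Counts lower than wild type in Ring1B deficient cells went from 0 to 1 with the mean over probe sets. In Eed deficient cells 6 lower genes became 2 without the trend and 1 with the groups compared alone. In double deficient cells 13 became 20 after median centring (median -0.57) and 8 with the mean over probe sets, and the 1 higher gene became 0 after centring and without the trend. Double against Eed deficient cells gave 1 lower gene after centring, 3 with array weights and 1 with numbers 1 and 3 alone. Double against Ring1B deficient cells gave 4 lower genes after quantile normalization, with the mean over probe sets, without the trend and with numbers 1 and 3 alone, 13 after centring (median -0.37), and 1 higher gene after quantile normalization, with the mean over probe sets and with array weights. Eed against Ring1B deficient cells gave 0 without the trend, 0 with the groups compared alone and 2 with array weights. For number 2 against 1 the 1 higher gene became 0 after quantile normalization and centring, without the filter, without the trend and without the wild type arrays, and for number 3 against 2 the 13 higher genes became 8 after centring and 7 without the trend.

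With the replicate block, which takes out the part shared by a number, against wild type 4 genes were lower in Ring1B deficient cells, 16 in the Eed deficient line and 21 in the double deficient line, 4 in double against Eed deficient, 12 in double against Ring1B deficient (with 1 higher) and 6 in Eed against Ring1B deficient cells, and the interaction had 1 gene of each sign. For 6 of 12 arrays the best correlated array in every other genotype had the same number, a hint from the data and not from the design.

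Leaving out 1 array at a time gave 1 to 8 lower genes in Eed deficient cells, 7 to 14 lower and 0 to 1 higher in double deficient cells, 0 to 1 lower in double against Eed deficient, 2 to 8 lower and 0 to 1 higher in double against Ring1B deficient, and 0 to 2 lower in Eed against Ring1B deficient cells. For replicate numbers it gave 17 to 25 lower and 0 to 1 higher in number 2 against 1, and 6 to 15 higher in number 3 against 2. Of the 36 genes none lay near the background.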
